A study of Mus musculus with 5 samples.

Results

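The Fanconi anaemia genes described here are the 10 members Fanca, Fancb, Fancc, Fance, Fancf, Fancg, Fancl and Fancm, which encode the core complex, and Fancd2 and Fanci, which encode the pair of proteins that the core complex modifies. They were found by gene symbol in the deposited expression values, where each of the 10 had exactly 1 probe set, out of 17325 genes with at least 1 probe set and 23835 probe sets in all. Expression was measured on Affymetrix Mouse Genome 430 2.0 arrays in pro-B cells (B220+IgM-CD43+CD24+), the early B-cell precursors that rearrange the immunoglobulin heavy chain locus, which were FACS-purified from marrow of mice aged 9 months. The 2 Mef2c-deficient arrays came from Vav-Cre Mef2cfl/fl mice, in which Vav-Cre, active in cells of the haematopoietic system, removes the floxed part of Mef2c. The 3 control arrays came from mice that, per the methods, could be Mef2cfl/fl, Mef2cfl/+ or Vav-Cre Mef2cfl/+, and the sources used here give neither the genotype of each control nor the number of mice behind each sample. Some controls may therefore carry Cre and 1 deleted allele.

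The Fanconi anaemia pathway repairs interstrand crosslinks, lesions that tie both strands of DNA together and block replication forks. FANCM recruits the core complex to the stalled fork, the core complex acts as a ubiquitin ligase through FANCL, and the ubiquitinated FANCD2-FANCI clamp then directs nucleases and homologous recombination to the lesion. Inherited loss of the pathway causes bone marrow failure in humans, and blood-forming cells, which divide rapidly and are exposed to aldehydes, depend on it. Within the core complex FANCA and FANCG form a module with FAAP20, FANCB and FANCL one with FAAP100, and FANCC, FANCE and FANCF a bridging one.

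The sequences before the start sites of 4 members are printed because these genes mark the ends of the range of differences below. Fancf and Fancb had the largest differences, Fancl the smallest, and Fanci stands for the substrate pair. They are from RefSeq on build GRCm38.p6, 5′ to 3′ on the strand of the gene, and stop before the annotated gene. Fancf lies on the minus strand (chr7:51862268-51862517), and Fancb (chrX:164980342-164980479), Fanci (chr7:79392088-79392311) and Fancl (chr11:26386834-26387083) lie on the plus strand. Capitals mark CCAAT and the GC box GGGCGG.
Fancf: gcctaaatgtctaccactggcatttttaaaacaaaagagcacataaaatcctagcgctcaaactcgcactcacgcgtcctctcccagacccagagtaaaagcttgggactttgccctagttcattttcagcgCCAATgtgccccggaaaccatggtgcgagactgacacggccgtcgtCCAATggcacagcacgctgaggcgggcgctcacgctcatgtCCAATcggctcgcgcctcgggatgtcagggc
Fancb: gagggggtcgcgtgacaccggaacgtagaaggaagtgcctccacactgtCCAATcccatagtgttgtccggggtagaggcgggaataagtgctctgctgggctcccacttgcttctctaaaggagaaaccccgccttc
Fanci: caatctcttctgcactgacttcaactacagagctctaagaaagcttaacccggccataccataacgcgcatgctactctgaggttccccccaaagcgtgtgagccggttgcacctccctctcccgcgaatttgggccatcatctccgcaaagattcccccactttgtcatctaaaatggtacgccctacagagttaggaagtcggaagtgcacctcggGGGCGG
Fancl: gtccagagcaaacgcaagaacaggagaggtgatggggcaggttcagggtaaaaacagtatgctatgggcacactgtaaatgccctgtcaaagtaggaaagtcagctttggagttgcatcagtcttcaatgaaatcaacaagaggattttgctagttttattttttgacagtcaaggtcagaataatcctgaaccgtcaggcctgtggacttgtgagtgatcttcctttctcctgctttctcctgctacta
The Fancf promoter held 3 CCAAT matches, at positions -118, -72 and -31 from its RefSeq start site, all in the direction of the gene. A RefSeq promoter window was found for 9 of the 10 members, all but Fancd2. Over the 250 bases before each start, searched on both strands, CCAAT was found in the windows of Fanca, Fancb, Fancc, Fance, Fancf and Fancm, and in 33.8% of all 32851 windows of that length. At least 3 CCAAT on the strand of the gene, a count looked at only after Fancf had been seen, occurred in 0.767% of windows. The GC box was found in the windows of Fanca, Fancb, Fance, Fanci and Fancm, and in 32.7% of all windows. Neither the E2F motif (TTTGGCGC or TTTCGCGC, in 0.654% of windows) nor the MEF2 box (in 2.92%) was found in the windows of these 9 members.

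The deposited values are linear intensities from robust multiarray averaging (RMA) and appear to be e, not 2, raised to the log2 signal, because 314 to 430 values per array lay above 65535, the most a 16-bit scanner records. Fold changes below are of the deposited values unless called signal, and log2 fold changes and their standard errors (SE) are from limma on the log2 of the deposited value, Mef2c-deficient minus control. A probe set was called lower or higher where its fold was 2 or more and its unadjusted p from limma was 0.05 or less, thresholds that the study states for its pre-B cell arrays. Mef2c itself had 7379 and 6219 on the Mef2c-deficient arrays, against 14006, 20854 and 17220 on the control arrays (log2 fold change −1.34, SE 0.28, limma adjusted p = 0.103). No probe set had an adjusted p under 0.05 in limma (0 of 23809, smallest adjusted p = 0.102), while 7038 had an unadjusted p under 0.05. Bright probe sets were mostly lower in Mef2c-deficient cells and dim ones mostly higher, with a median log2 fold change in 10 groups by mean level of 0.56 in the dimmest, −1.07 in the ninth and −0.90 in the brightest. The values spread less on both Mef2c-deficient arrays. Upper quartiles were 1072 and 968, against 1470 to 1850 on the controls, and lower quartiles were 65.4 and 52.7, against 38.7 to 42.9. The part of this in the trend with level was not tested. The members lay in groups 5 to 9, so each is set beside its own group. The group median was 0.47 for Fancb (6.17% called lower) and −0.20 for Fancc and Fance (16.1%). For Fancf, Fancg, Fancl, Fancm and Fancd2 it was −0.84 (27.3%), and for Fanca and Fanci −1.07 (38.5%). Mef2c itself lay in the brightest group (median −0.90, 31.8% called lower), and its 95% interval (−2.07 to −0.61) included that median. The level is the mean over all 5 arrays, so low Mef2c-deficient values themselves move a member to a dimmer group. The values of the pro-B marker Cd79a (231011 and 250654 on the Mef2c-deficient arrays, 153021 to 257531 on the controls) were far above the array medians of 181 to 238, while 8 of 11 measured pro-B markers had log2 fold changes below 0 (list median −0.80) and 0 of 11 were called. Ebf1, a transcription factor of early B cells, had 29295 and 3026 on the Mef2c-deficient arrays, against 29295 to 35416 on the controls, and Blnk, a signalling adaptor, had 25010 and 2661, against 18899 to 41783 on the controls. The values of Cd79a were thus not typical of the list, in which Ebf1 (log2 fold change −1.77) and Blnk (−1.85) were low on Mef2c-deficient replicate 2 only. Igll1 (25064 and 26275, against 32084 to 97663 on the controls), Spn and Cd93 were below all controls on both Mef2c-deficient arrays. Dntt was lowest on Mef2c-deficient replicate 1 (3050 and 35539, against 8488 to 127098 on the controls).

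Of the 10 Fanconi genes, 5 were lower in Mef2c-deficient pro-B cells (Fancb, Fancf, Fancg, Fancm and Fanci), 0 were higher and 5 did not pass. Without Mef2c-deficient replicate 2 the number lower was 3, and without Mef2c-deficient replicate 1 it was 8. Over all probe sets tested, 13.5% were called lower and 10.1% higher, and among those above the median level 24.6% were lower and 4.8% higher. All 10 members had a negative log2 fold change, as did 43.6% of all probe sets. In 8 of the 10 both Mef2c-deficient arrays lay below all 3 control arrays, the exceptions being Fance and Fancl, against 23.5% of all probe sets and 42.1% of those above the median level. Both Mef2c-deficient arrays lay above all controls in 0 of the 10, against 27.5% of all probe sets. An unadjusted p under 0.05 was found for 6 of 10 members, against 29.6% of all probe sets, and the adjusted p ran from 0.102 to 0.381.

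**Figure D1:**
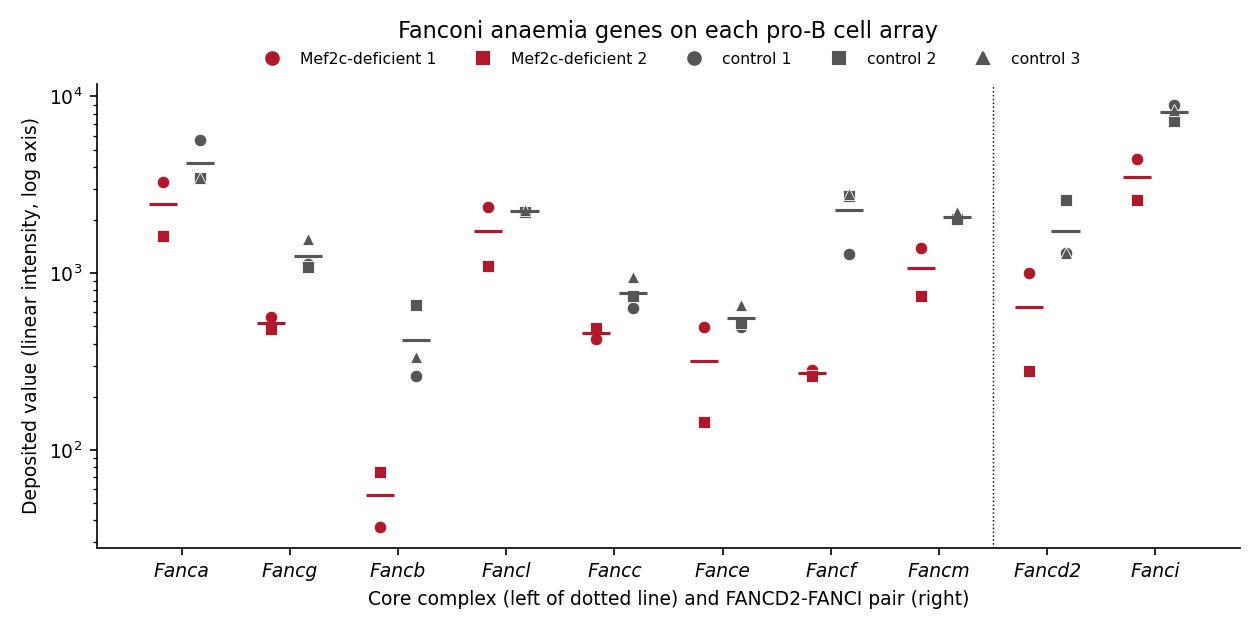
Deposited intensity (log axis) of each of the 10 genes on the 2 Mef2c-deficient and 3 control arrays, with 1 point per array and a bar at each group mean. Fancf and Fancb show the widest gaps between the groups, while in Fance and Fancl the arrays of the groups overlap.

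Fancf had the largest difference. Its protein is the adaptor that holds the core complex together, and its gene, on chromosome 7 (51860577 to 51862267), is the shortest of the 10, 1691 bases long. Its value was 282 and 262 on the Mef2c-deficient arrays, against 1282, 2748 and 2811 on the control arrays. The Mef2c-deficient arrays lay close together and far below every control. Fancf averaged 272 ± 13.7 (SD, n = 2) in Mef2c-deficient and 2280.2 ± 865 (SD, n = 3) in control cells, 11.9% of control, and its log2 fold change was −2.98 (SE 0.43, limma adjusted p = 0.102). This is a 7.90-fold lower deposited value or 4.19-fold lower signal. Probe sets of the same level had a median log2 fold change of −0.84, outside the 95% interval of Fancf (−4.10 to −1.86).

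The other members of the bridging module did not pass. Fancc, on chromosome 13, had 424 and 488 on the Mef2c-deficient arrays, against 633, 744 and 956 on the controls. The groups did not overlap, and its unadjusted p met the threshold, but its log2 fold change of −0.75 (SE 0.28, limma adjusted p = 0.163) was short of a fold of 2. Fance, on chromosome 17, encodes the subunit that binds FANCD2. It had 497 and 144 on the Mef2c-deficient arrays, against 497, 525 and 659 on the controls. Mef2c-deficient replicate 1 held exactly the value of control replicate 1, so only Mef2c-deficient replicate 2 was low. The log2 fold change of Fance was −1.06 (SE 0.58, limma adjusted p = 0.256). Without Mef2c-deficient replicate 1 it was called lower (−1.95).

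Fancb, on the X chromosome (164980480 to 164997272), was lower by almost as much as Fancf. FANCB is a scaffold of the catalytic module. Its value was 36.8 and 75 on the Mef2c-deficient arrays, against 261, 664 and 337 on the control arrays. Both Mef2c-deficient values were below the median of all probe sets on their array (238 and 203), while the 3 control values were above it (181 to 193). Fancb averaged 55.9 ± 27.1 (SD, n = 2) in Mef2c-deficient and 421 ± 214 (SD, n = 3) in control cells, 13.3% of control, with a log2 fold change of −2.88 (SE 0.55, limma adjusted p = 0.102). The deposited value was 7.38-fold and the signal 4.0-fold lower. Of probe sets at its level 6.17% were called lower, and their median log2 fold change was 0.47. That level includes the low Mef2c-deficient values, which place Fancb in a dimmer group than its controls would. Its control mean lay between the median levels of groups 6 and 7 (277 and 545). In those groups 9.12% and 16.1% were called lower, with a median log2 fold change of 0.36 and −0.20.

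Fancl, on chromosome 11, encodes the ubiquitin ligase subunit itself and had the smallest difference of the members. It had 2355 and 1098 on the Mef2c-deficient arrays, against 2225, 2225 and 2280 on the controls. Mef2c-deficient replicate 1 was above every control and Mef2c-deficient replicate 2 was below them. The log2 fold change was −0.48 (SE 0.39, limma adjusted p = 0.381), with a 95% interval of −1.48 to 0.52. Without Mef2c-deficient replicate 1 it was called lower (−1.03), and without Mef2c-deficient replicate 2 it was at 0.070. Within the catalytic module the scaffold was called and the ligase subunit was not, a contrast that was not tested.

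Fancg and Fanca encode binding partners of 1 module. Fancg, on chromosome 4, had 565 and 482 on the Mef2c-deficient arrays, against 1121, 1087 and 1551 on the controls. All control values exceeded both Mef2c-deficient values, and Fancg was lower, with a log2 fold change of −1.24 (SE 0.28, limma adjusted p = 0.106). Its signal was 1.82-fold lower. Fanca, on chromosome 8, had 3301 and 1627 on the Mef2c-deficient arrays, against 5684, 3434 and 3434 on the controls. The groups did not overlap, but Mef2c-deficient replicate 1 was close to the pair of equal control values. Fanca did not pass, at a log2 fold change of −0.81 (SE 0.44, limma adjusted p = 0.255).

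Fancm, on chromosome 12, encodes the DNA translocase that anchors the core complex to chromatin. It had 1394 and 742 on the Mef2c-deficient arrays, against 2027, 2016 and 2213 on the controls. The controls lay close together and above both Mef2c-deficient arrays, which differed from each other. Fancm was called lower just inside the threshold, at a log2 fold change of −1.03 (SE 0.34, limma adjusted p = 0.140). The call was lost without Mef2c-deficient replicate 2 (−0.58) and without each control in turn (−1.06 to −0.99, with an unadjusted p over 0.05), and in 10 of 16 alternative settings in all.

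**Figure D2:**
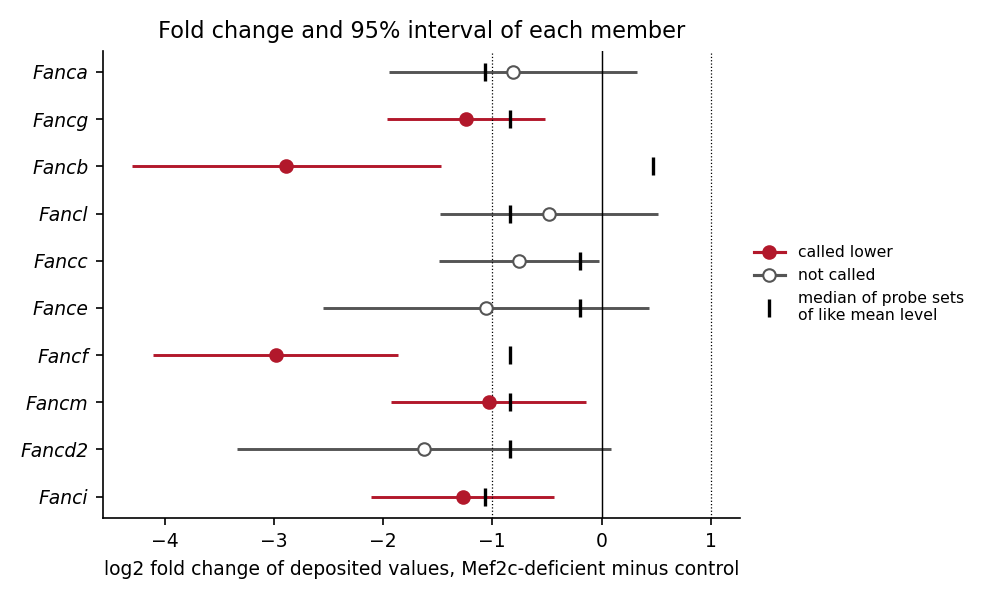
Log2 fold change (horizontal axis, Mef2c-deficient minus control, from limma) of each member with its 95% interval, beside the median of probe sets of the same mean level. The intervals of Fancf and Fancb leave out the median of their level group, and those of the other 8 members include it.

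The substrate pair was measured by 1 probe set each. Fanci, on chromosome 7, had 4421 and 2580 on the Mef2c-deficient arrays, against 8923, 7219 and 8420 on the control arrays. Every control exceeded both Mef2c-deficient arrays. Fanci was lower, with a log2 fold change of −1.27 (SE 0.33, limma adjusted p = 0.111) and a 1.84-fold lower signal, and the call was lost without Mef2c-deficient replicate 2 (−0.88). Its level group had a median log2 fold change of −1.07, and 38.5% of that group were called lower. Fancd2, on chromosome 6, had 999 and 281 on the Mef2c-deficient arrays, against 1302, 2580 and 1302 on the controls. The groups did not overlap, though Mef2c-deficient replicate 1 was near the lower controls, and Fancd2 did not pass, at −1.63 (SE 0.66, limma adjusted p = 0.180). It was called without Mef2c-deficient replicate 1 (−2.54).

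Set side by side, 4 of 8 core complex genes and 1 of 2 genes of the pair were lower, beside 13.5% of all probe sets and 24.6% of those above the median level. The median log2 fold change was −1.05 over the core complex (range −2.98 to −0.48) and −1.45 over the pair, beside 0.19 over all probe sets and −0.68 over those above the median level, where all members but Fancb lay. Without Mef2c-deficient replicate 1 the medians were −1.42 for the core and −2.10 for the pair, and without Mef2c-deficient replicate 2 they were −0.72 and −0.80. The mean deviation of the core genes from their mean over the 5 arrays was −0.60 and −1.09 (log2) on the Mef2c-deficient arrays, against 0.38, 0.63 and 0.68 on the controls. For the pair it was −0.22 and −1.52 on the Mef2c-deficient arrays, against 0.48, 0.82 and 0.44 on the controls. Both sets were low on both Mef2c-deficient arrays, the pair chiefly on replicate 2. The core minus pair difference was −0.38 and 0.43 in Mef2c-deficient cells, against −0.10, −0.19 and 0.24 in controls, so the groups overlapped, with opposite signs on the Mef2c-deficient arrays.

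**Figure D3:**
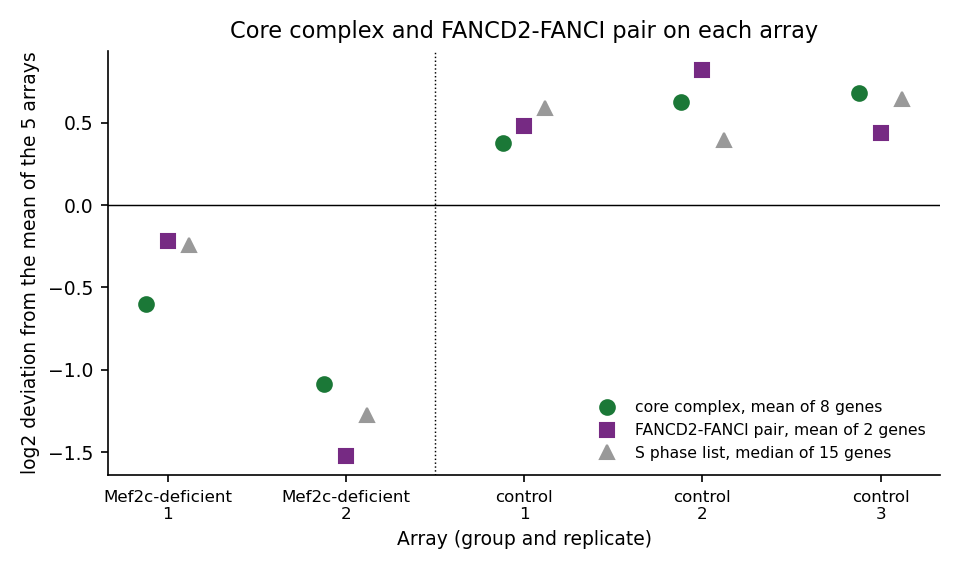
Mean log2 deviation of the 8 core complex genes and of Fancd2 and Fanci, and median deviation of 15 S phase genes, from the mean over the 5 arrays (vertical axis), with 1 point per array and set. Both Mef2c-deficient arrays lie below all 3 control arrays for each set, and the order of core and pair differs between the Mef2c-deficient arrays.

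The Mef2c-deficient arrays were not alike for these genes. Mef2c-deficient replicate 2 was below all controls in 10 of 10 members and below Mef2c-deficient replicate 1 in 8 of 10, all but Fancb and Fancc. Mef2c-deficient replicate 1 was below all controls in 8. Other lists moved with these arrays too. Of 15 S phase genes (replication licensing and nucleotide supply, such as Mcm2 to Mcm7 and Rrm1) 9 were lower and 0 higher, with a median deviation of −0.24 and −1.28 on the Mef2c-deficient arrays, against 0.59, 0.39 and 0.65 on the controls. Of 9 measured mitosis genes 3 were lower, and of 10 housekeeping probe sets 5 were lower, with a median log2 fold change of −1.09. All probe sets of these lists but that of Tyms lay in level groups 8 to 10. In those groups 27.3% to 38.5% of probe sets were called lower, with a median log2 fold change of −1.07 to −0.84, against 13.5% called lower over all probe sets.

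Several lists of cell type markers stood apart on Mef2c-deficient replicate 2. The 11 measured pro-B genes summed to 1438512 and 753097 on the Mef2c-deficient arrays, against 1101643 to 1682855 on the controls. The sum was thus below every control on the array where most Fanconi genes were also lowest. Cd24a was a large part of it (683783 and 152861, against 528504 to 564591 on the controls). On Mef2c-deficient replicate 2, Blnk, Cd24a, Cd93, Ebf1, Igll1, Spn and Vpreb3 were below every control, and Cd79a, Cd79b, Dntt and Ptprc were not. Markers of some other cells were high there. The summed value of 10 of 12 listed T and NK cell genes was 6567 and 51153 on the Mef2c-deficient arrays, against 9879 to 11676 on the controls. The receptor gene Cd3e had 366 and 13843 on the Mef2c-deficient arrays, against 232 to 387 on the controls, and was not called. Of this list 2 were called higher (Cd8a and Ncr1, below the array median on all 5 arrays) and 2 lower (Gzma and Prf1). Prf1 had 3612 and 3404 on the Mef2c-deficient arrays, against 6644 to 9364 on the controls. On Mef2c-deficient replicate 2 Cd4 (358) lay among the controls (296 to 480). Plasmacytoid dendritic cell genes (6 of 8 measured) summed to 12476 and 95427 on the Mef2c-deficient arrays, against 37971 to 55334, and erythroid genes (5 of 8) to 1534 and 5120, against 806 to 930 on the controls. Of the erythroid genes, Epor on Mef2c-deficient replicate 2 (135) lay among the controls (85.9 to 165), and Klf1 (102) equalled the highest control. Neutrophil and monocyte genes (10 measured) were high on all 5 arrays, controls included. They summed to 2501042 and 5714503 on the Mef2c-deficient arrays, against 2323254 to 4837095 on the controls. S100a9 alone had 1285283 and 1723651, against 978061 to 2045829 on the controls, more than Cd79a on every array. No marker list was at 0 on an array. On Mef2c-deficient replicate 1, 15 Affymetrix hybridisation control probe sets were raised, at a median deviation of 1.97, against 0.12 on Mef2c-deficient replicate 2 and −1.58 to −0.05 on the controls. The part of these differences in the Fanconi values was not tested. With 1 Mef2c-deficient array left out, the log2 fold change of Fancf and Fancb was −3.03 and −2.37 without replicate 1, and −2.93 and −3.40 without replicate 2. In such fits the spread between arrays comes from the 3 controls alone, and the lone Mef2c-deficient array is assumed to vary as they do. In sorted bulk cells, fewer cells of a type and less RNA per cell cannot be told apart.

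**Figure D4:**
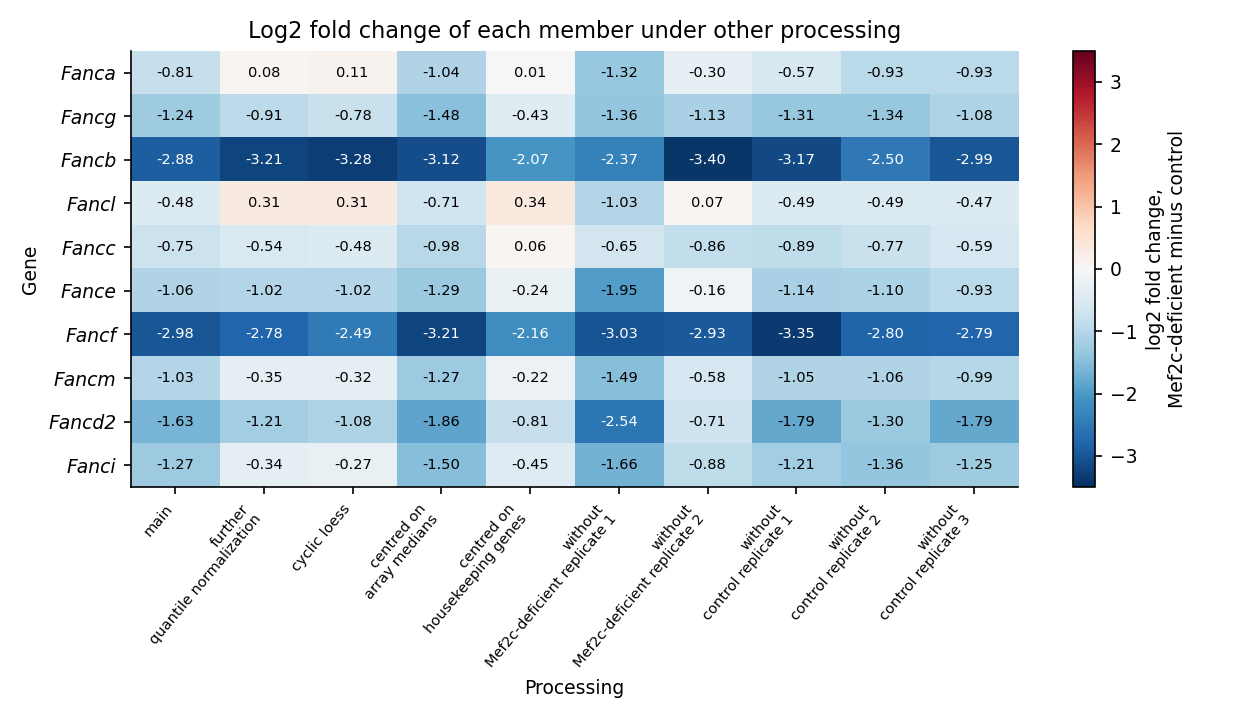
Log2 fold change (colour and printed value, Mef2c-deficient minus control) of each member (rows) as deposited, after 4 other ways of scaling the arrays and without each array in turn (columns). Fancf and Fancb stay between −3.40 and −2.07, while Fanca, Fancc and Fancl are above 0 in at least 1 column.

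Fancf passed the call in all 16 alternative settings (log2 fold change −3.35 to −2.16) and Fancb in all 15 that could be run (−3.40 to −2.07), since its mean level fell below the limit of the setting that left out dim probe sets. Both were also the only calls left among the members at a fold of 2 in signal, where 8.51% of all probe sets were lower. Fancg and Fanci lost the call in 5 settings each, among them a further quantile normalization (−0.91 and −0.34) and centring on housekeeping genes (−0.43 and −0.45). The direction of Fanca, Fancc and Fancl was not fixed, as at least 1 scaling turned each to a value between 0.0071 and 0.34. Values shared exactly by 2 arrays, as in Fance above, were found in 4 members (Fanca, Fancd2, Fance and Fancl), and in 42.8% of all probe sets.

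The rest of the pathway was read from 23 listed genes, of which 19 were measured by 20 probe sets. Of these probe sets 7 were lower, 1 was higher and 12 did not pass, with a median log2 fold change of −1.01. The number lower was 3 without Mef2c-deficient replicate 2 or control replicate 3, 4 without control replicate 1 and 11 without Mef2c-deficient replicate 1. Both Mef2c-deficient arrays were below all controls in 13 of 20. Over all probe sets above the median level, where all but Faap100 lay, 24.6% were called lower and 42.1% had both Mef2c-deficient arrays below all controls, against 13.5% and 23.5% of all probe sets. The other listed genes, among them Faap20, Fan1 and Xrcc2, were not analysed here.

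Among partners of the core complex, Cenpx, which encodes the histone-fold protein MHF2 that binds DNA with FANCM, had 3619 and 2563 on the Mef2c-deficient arrays, against 11504, 9106 and 8647 on the controls. It was lower in every Mef2c-deficient array, at a log2 fold change of −1.67 (SE 0.29, limma adjusted p = 0.102). The call of Cenpx was lost after a further quantile normalization (−0.73), after cyclic loess (−0.66) and with centring on housekeeping genes (−0.85). Its level group had a median log2 fold change of −1.07, and 38.5% of that group were called lower. Faap100, of the module of FANCB and FANCL, was higher at 1.44 (SE 0.34, limma adjusted p = 0.107), with 227 and 157 on the Mef2c-deficient arrays, against 56.3, 91.4 and 65.4 on the controls. All 5 values of Faap100 were below the median of their array, and its level group had a median log2 fold change of 0.58. Ube2t, the ubiquitin-conjugating enzyme that works with FANCL, had 1072 and 611 on the Mef2c-deficient arrays, against 1881, 1237 and 1931 on the controls. It was called lower at −1.03 (SE 0.38, limma adjusted p = 0.161), but not by its second probe set (−0.51), and the call was lost without Mef2c-deficient replicate 2 (−0.62) and without the first (−0.93) or the third control (−0.91), and in 12 of 16 alternative settings in all.

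Usp1 and Wdr48 encode the deubiquitinase and its cofactor, which remove ubiquitin from FANCD2-FANCI. Wdr48 had 1323 and 1121 on the Mef2c-deficient arrays, against 2523, 2644 and 4218 on the controls. It was lower, at −1.32 (SE 0.33, limma adjusted p = 0.110), and the call was lost without Mef2c-deficient replicate 2 (−1.20). Usp1 had 28748 and 10895 on the Mef2c-deficient arrays, against 42232, 26921 and 38837 on the controls. Mef2c-deficient replicate 1 lay among the controls, and Usp1 did not pass (−1.0, SE 0.50, limma adjusted p = 0.236), except without that array (−1.70).

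Downstream of the pair, Eme1 and Ercc4 encode parts of structure-specific nucleases. Eme1 had 1873 and 417 on the Mef2c-deficient arrays, against 4204, 4138 and 6185 on the controls, and was lower at −2.43 (SE 0.69, limma adjusted p = 0.120). It was not called without control replicate 3 (−2.24). Ercc4 had 503 and 211 on the Mef2c-deficient arrays, against 764, 764 and 905 on the controls, and was lower at −1.31 (SE 0.43, limma adjusted p = 0.138). Both genes were lowest on Mef2c-deficient replicate 2. Ercc4 was not called without any 1 of the controls (−1.35 to −1.23) or without Mef2c-deficient replicate 2 (−0.68).

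Of the recombination arm, Brca1 had 1812 and 2812 on the Mef2c-deficient arrays, against 5353, 5765 and 5504 on the controls. It was lower at −1.29 (SE 0.29, limma adjusted p = 0.106), with replicate 1 as the lower of the Mef2c-deficient arrays, and the call was lost without that array (−0.98). Brip1, the helicase FANCJ, had 2228 and 341 on the Mef2c-deficient arrays, against 4313, 3462 and 5330 on the controls. It was lower at −2.30 (SE 0.84, limma adjusted p = 0.156), and the call was lost without any 1 control (−2.46 to −2.15) or without Mef2c-deficient replicate 2 (−0.95). Brca2, which encodes a mediator of homologous recombination, had 2228 and 233 on the Mef2c-deficient arrays, against 3912, 2228 and 2732 on the controls. Its Mef2c-deficient replicate 1 equalled the lowest control, and Brca2 did not pass at −2.0 (SE 1.0, limma adjusted p = 0.235), though it did without that array (−3.63).

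**Figure D5:**
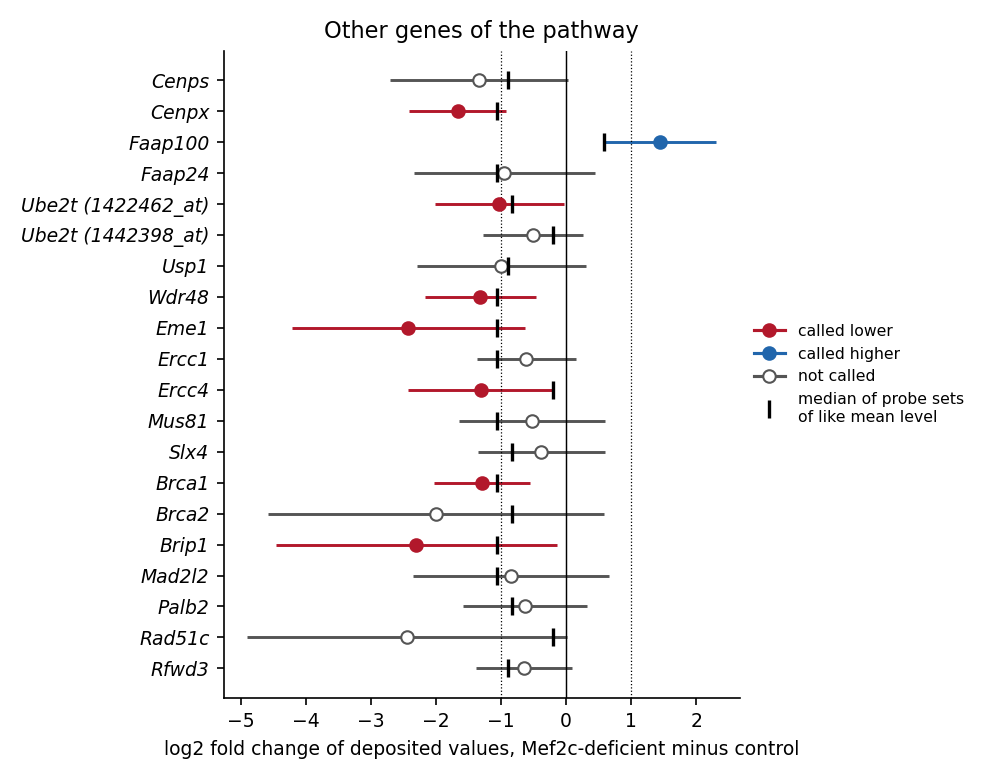
Log2 fold change (horizontal axis, from limma, with 95% interval) of the 20 probe sets of the wider Fanconi pathway, ordered by role, with ticks at the median of probe sets of like level and dotted lines at a fold of 2. Of these, 7 were called lower, Faap100 was called higher and 12 did not pass.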

How the data were processed

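RNA of sorted pro-B cells was hybridised to 5 Affymetrix Mouse Genome 430 2.0 arrays, 2 Mef2c-deficient and 3 control, which the methods call independent samples. The p-values measure the spread between these samples only. Per the methods, the authors background-adjusted, quantile normalized and summarised the probes by RMA and left out probe sets without present calls. The deposited arrays nevertheless did not share 1 distribution, as their quartiles given above differed. The deposited unit is a linear intensity per probe set. The values appear to be e raised to the log2 signal, as their natural logarithms run from 1.15 to 14.7, so a deposited fold of 2 is a smaller fold in signal (signal fold is 2 raised to the log2 fold change times the natural logarithm of 2). The p-values do not depend on this base. The number of arrays limits the precision, and no depth applies.

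Of 23835 probe sets, 26 Affymetrix controls were left out. GEO's platform annotation gave 1 symbol for 17623 probe sets, several for 516 and none for 5696. Log2 of the deposited values of the other 23809 was fitted with limma 3.58.1 in R 4.3.3, Mef2c-deficient minus control, with Benjamini-Hochberg adjustment over all probe sets. The script was tested on simulated data. Every member was named, with the called genes of the wider pathway, Ube2t, Usp1 and Brca2. Levels were split into 10 equal groups by mean log2 value. Alternatives covered scaling, filters, tests, a replicate block and leaving out each array. The members, gene lists and level groups were chosen with earlier results of these data known. Promoter sequences and gene positions are from RefSeq (GRCm38.p6). The sources used here do not place the probe sets within their genes, and so not that of Mef2c beside its floxed exon.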

Additional observations from a re-analysis of the deposited data

How the results depend on the processing

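Counts of calls were recomputed under 16 alternatives, and the core and pair medians and the values of Fancb and Faap100 under the 15 that apply to them. Of the members, 5 were called lower in the main setting, 2 after a further quantile normalization, 2 after cyclic loess, 8 with each array centred on its median, 2 with centring on housekeeping genes, 2 at a fold of 2 in signal and 3 with the replicate block, and none was called higher in any. Leaving out 1 array gave 3 (without Mef2c-deficient replicate 2) to 8 (without Mef2c-deficient replicate 1). Of the wider pathway 7 probe sets were lower, against 2 after quantile normalization, 3 after loess, 11 with array medians, 0 with housekeeping genes, 3 in signal, 3 by the methods' t-test and 3 with the replicate block. Leaving out 1 array gave 3 (without Mef2c-deficient replicate 2 or control replicate 3) to 11 (without Mef2c-deficient replicate 1), and 4 without control replicate 1. Faap100, the 1 higher probe set, gave a count of 0 after loess, without dim probe sets, in signal and with the replicate block, and 1 in every leave-one-out fit. The core median, −1.05, was −0.72 after quantile normalization, −0.63 after loess, −0.23 with housekeeping genes and −1.42 to −0.72 with 1 array left out. The pair median, −1.45, was −0.78, −0.67 and −0.63 in those settings and −2.10 to −0.80 with 1 array left out. The ends left out Mef2c-deficient replicate 1 and replicate 2. The sign turned for Fanca (0.082 after quantile normalization, 0.11 after loess, 0.0071 with housekeeping genes), for Fancc (0.065 with housekeeping genes) and for Fancl (0.31, 0.31 and 0.34 in those 3 settings, −1.03 to 0.070 with 1 array left out, the ends without Mef2c-deficient replicate 1 and replicate 2). Mef2c itself was not called after quantile normalization (−0.43), after loess (−0.32), with housekeeping genes (−0.52), with array weights (−1.26) or in signal. These scalings moved the median of all probe sets, 0.19, to 0.026, 0.0073 and 1.0, and array medians moved it to −0.044. Relative to it the core median was −1.23 in the main setting, −0.75 after quantile normalization, −0.64 after loess and −1.23 with either centring, and the pair median was −1.64 in the main setting, −0.80 after quantile normalization and −0.68 after loess. With dim probe sets left out, the median of all was −0.68 and the core and pair lay −0.36 and −0.77 from it. Calls lower and higher over all probe sets were 3206 and 2401, 1832 and 1904 after quantile normalization, 1832 and 1591 after loess, 4690 and 1558 with array medians, and 673 and 11076 with housekeeping genes. They were 2025 and 1089 in signal, 1934 and 1368 by the methods' t-test, which gave 14 adjusted p under 0.05, 2184 and 1022 with the replicate block and 2735 and 4389 without Mef2c-deficient replicate 2. At an adjusted p under 0.05 limma gave 9362 probe sets with housekeeping genes (2 members, Fancb and Fancf). In the fits with 1 Mef2c-deficient array the spread comes from the 3 controls alone, so their adjusted p-values are not given. Replicate numbers pair nothing in the labels, so the numbers were not taken as pairs. Same-numbered deviations correlated at 0.10 and −0.031 over 2 numbers. With 2 Mef2c-deficient arrays the deviations of 1 mirror those of the other, so these correlations cannot decide whether the arrays were paired. Causes were not tested. With 2 and 3 arrays and no adjusted p under 0.05, the calls rest on unadjusted p-values.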

Other observations

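Fancb lies on the X chromosome, and X-linked and Y-linked genes did not give 1 pattern over the controls. Xist, the X-inactivation RNA of female cells, had 97945 and 105631 on the Mef2c-deficient arrays, against 107004, 94135 and 99.6 on control replicates 1, 2 and 3. The Y-linked genes Eif2s3y, Kdm5d and Uty were below the array median on all 5 arrays, control replicate 3 included, with values up to 26.0 on the Mef2c-deficient arrays and up to 12.7 on the controls. Fancb had 337 on control replicate 3, between the other controls, and without that array its log2 fold change was −2.99.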
